A study of Oryza sativa with 6 samples.

Results

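A set of 10 genes of iron handling in rice (Oryza sativa) was followed in leaves of a diploid line and of the tetraploid made from it. They are the regulator IRO2 (LOC_Os01g72370), the nicotianamine synthases NAS1 (LOC_Os03g19427), NAS2 (LOC_Os03g19420) and NAS3 (LOC_Os07g48980), and the deoxymugineic acid synthase DMAS1 (LOC_Os03g13390). They include the transporters YSL2 (LOC_Os02g43370), YSL15 (LOC_Os02g43410) and IRT1 (LOC_Os03g46470) and the ferritins FER1 (LOC_Os11g01530) and FER2 (LOC_Os12g01530). The genes were chosen by locus identifier, and all 10 were found among the 55986 gene models of the deposited count table. The table itself holds no gene names. The names are those commonly used for these loci, and a RefSeq gene of the same name lies on the chromosome that the identifier gives for 6 of the 10 (NAS1, NAS2, NAS3, YSL2, YSL15 and IRT1).

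The compared lines were Balilla-2x, a diploid of the japonica subspecies, and Balilla-4x, an artificial tetraploid obtained by doubling its chromosomes. Both carried the treatment label normal, grew in the field in Shanghai and were sampled as leaves at 4 weeks of age. Each line had 3 libraries, and whether different plants stand behind them is not stated. The p-values therefore describe library-to-library spread, possibly technical, and the tetraploid is a single line. The libraries held 16738447 to 18106962 counts.

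Grasses take up iron by secreting mugineic acids, small chelators that bind iron(III) in the soil and are carried back into the root as a complex. Their precursor is nicotianamine, which is made from S-adenosylmethionine and which also carries iron(II) and other metals within the plant, through the phloem among other routes. Rice can in addition take up iron(II) directly through IRT1. In leaves much of the iron serves the chloroplast, and ferritin, a shell-shaped protein of plastids, stores iron that is not in use.

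Leaf identity was checked with 7 photosynthesis loci and 4 loci taken as root markers, all from general knowledge of rice identifiers. Every photosynthesis locus was read, and together they reached 10035 to 12674 CPM (counts scaled to library size) in diploid libraries and 12558 to 17459 CPM in tetraploid ones. Of the 7, 3 were higher in Balilla-4x and 1 lower (edgeR, adjusted p under 0.05), beside 12.4% and 13.7% of all tested genes. Single leaf markers thus differed between the lines in both directions, and their part in the results was not tested. Of the root markers, 3 had no count in any library. Their summed level was 4.74 to 6.06 CPM in the diploid and 5.25 to 5.86 CPM in the tetraploid, the latter range lying within the former. In bulk leaf RNA, fewer cells of a type and less RNA per cell cannot be told apart.

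Per gene length, the ferritins and DMAS1 stood far above the other genes. In FPKM (the deposited level per kilobase of gene, relative to library size), Balilla-2x leaves held FER2 at 164 ± 41.8, FER1 at 143 ± 36.6 and DMAS1 at 58.7 ± 3.13 (SD, n = 3). The next genes were NAS3 at 1.33 ± 0.989, YSL2 at 0.363 ± 0.147 and NAS2 at 0.178 ± 0.0581 FPKM (SD, n = 3). The libraries of FER2 and FER1 overlapped, as did those of YSL2 and NAS2, while FER1, DMAS1 and NAS3 each lay apart from the next gene in this order. IRO2 was among the lowest genes that were read at all in the diploid, at 0.0329 ± 0.0315 FPKM (SD, n = 3). Its FPKM rests on a gene length of 4639 bases in the authors' table, the longest of the 8 members with a length. A longer length gives a lower FPKM, so the place of IRO2 among the genes depends on that length.

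In Balilla-4x the order of levels was the same at the top and differed below. FER2 stood at 90.7 ± 49.7, FER1 at 74.8 ± 41.4 and DMAS1 at 55.1 ± 17.0 FPKM (SD, n = 3), and here the libraries of all these neighbours in the order overlapped. NAS3 followed at 4.02 ± 1.16 FPKM (SD, n = 3). IRO2 came next at 1.22 ± 0.942 FPKM (SD, n = 3). YSL2 followed at 1.12 ± 0.536 FPKM (SD, n = 3), and its libraries overlapped those of IRO2. In the diploid the mean of IRO2 had stood below those of YSL2, NAS2 and IRT1. The place of IRT1 there rests on 8 counts in Balilla-2x replicate 1, and its libraries overlapped those of IRO2.

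**Figure D1:**
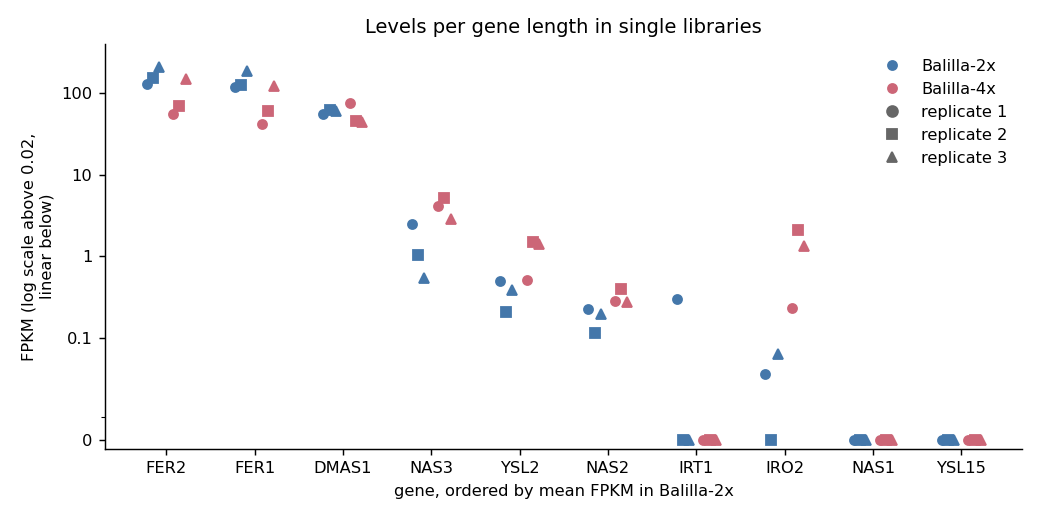
Deposited FPKM of the 10 genes in each library (3 per line), on an axis that is logarithmic above 0.02 and linear below, with genes ordered by their mean in Balilla-2x and point shapes giving the replicate. FER2, FER1 and DMAS1 lie between 42.2 and 209.9 FPKM in every library, and NAS1 and YSL15 lie at 0 in all of them.

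Of the 10 genes, 3 were higher in Balilla-4x (IRO2, NAS3 and YSL2) and 0 were lower by the edgeR quasi-likelihood test, at an adjusted p under 0.05. Over all tested genes 26.1% were called, 12.4% higher and 13.7% lower. The 3 called genes are 3 of the 6 members with enough counts to be tested, and IRO2 passed the low-count filter through the tetraploid alone, so nothing is read from this count about the set. At an unadjusted p under 0.05, 2 members were lower, both ferritins, and 3 higher, beside 4168 and 4054 of all 20976 tested genes (edgeR). At an adjusted p under 0.05, DESeq2 and limma on FPKM also called 0 members lower. Without the low-count filter and without Balilla-4x replicate 3, both ferritins were called lower (edgeR). All 3 higher genes changed at least 2-fold, and 6.55% of the tested genes were called with such a rise (5.18% with such a fall, 11.7% in all). The 6 tested members had a median log2 fold change of 0.68, beside 0.01 over all tested genes, as a description of these 6 only. This median includes IRO2, which entered through the tetraploid alone, so no direction of the set is read from it. NAS1, NAS2, YSL15 and IRT1 were not tested.

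IRO2 encodes a basic helix-loop-helix transcription factor that rises under iron deficiency and switches on genes of mugineic acid synthesis and uptake in rice. It had 3, 0 and 5 counts in the Balilla-2x libraries (replicates 1, 2 and 3) and 18, 166 and 105 in the Balilla-4x libraries. In CPM these were 0.17, 0 and 0.297 against 1.06, 9.44 and 6.13. Every tetraploid library lay above every diploid one, as in 21.6% of all tested genes. Within the tetraploid, replicate 2 was 8.95-fold above replicate 1. The diploid mean was 0.156 ± 0.149 CPM and the tetraploid mean 5.54 ± 4.22 CPM (SD, n = 3), and the log2 fold change was 5.11 (SE 0.97, 95% interval 2.91 to 7.31, edgeR adjusted p = 0.00644). The diploid libraries were so near 0 that the size of this change is poorly fixed. IRO2 reached 10 counts in 0 of 3 diploid and 3 of 3 tetraploid libraries, so it entered the test through the tetraploid alone and had to differ.

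Nicotianamine synthases join S-adenosylmethionine into nicotianamine. In rice, NAS1 and NAS2 are known mainly from roots short of iron, and NAS3 is the member also known from leaves. NAS3 had 72, 30 and 15 counts in Balilla-2x and 111, 143 and 79 in Balilla-4x. In CPM the diploid libraries were at 4.09, 1.70 and 0.89 and the tetraploid libraries at 6.51, 8.13 and 4.61. The lines did not overlap, although tetraploid replicate 3 was only slightly above diploid replicate 1, and the diploid libraries varied 4.59-fold among themselves. The means were 2.23 ± 1.66 CPM and 6.42 ± 1.76 CPM (SD, n = 3), a log2 fold change of 1.52 (SE 0.48, edgeR adjusted p = 0.0477). NAS3 was called with 1 of the 6 libraries left out and not with the other 5, with a log2 fold change from 1.14 to 2.29 and an adjusted p from 0.00834 to 0.155 (edgeR).

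NAS2 was barely read, with 6, 3 and 5 counts in Balilla-2x and 7, 10 and 7 in Balilla-4x. Its levels were 0.269 ± 0.0887 CPM and 0.463 ± 0.0919 CPM (SD, n = 3). The tetraploid libraries were all above the diploid ones, but by a few counts. Without the low-count filter its log2 fold change was 0.77 with an edgeR adjusted p of 0.541. NAS1, its neighbour on chromosome 3, had 0 counts in each library. At the depth of these libraries a count of 0 allows up to 3 counts, or 0.170 to 0.178 CPM. In the RefSeq table NAS1 and NAS2 stand next to each other with 0 genes between them. They are close copies, and how the authors assigned reads that match both is not given in the sources used here, so the split between them is uncertain.

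DMAS1 encodes the enzyme of the last step to deoxymugineic acid. It was abundant, with 1495, 1655 and 1519 counts in Balilla-2x and 1866, 1161 and 1138 in Balilla-4x. These were 84.9, 93.7 and 90.1 CPM in the diploid and 109, 66.0 and 66.4 CPM in the tetraploid. Tetraploid replicate 1 was above every diploid library and the other tetraploid libraries were below all of them. DMAS1 was not called, with a log2 fold change of -0.15 (SE 0.19, 95% interval -0.58 to 0.27, edgeR adjusted p = 0.583). Without Balilla-4x replicate 1 it was called as lower, with a log2 fold change of -0.44 and an edgeR adjusted p of 0.00839.

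YSL2, YSL15 and IRT1 are membrane transporters. YSL2 of rice carries iron(II) and manganese bound to nicotianamine and is known from the phloem. YSL15 takes up iron(III) bound to deoxymugineic acid, in roots in particular, and IRT1 takes up free iron(II). YSL2 had 29, 12 and 21 counts in Balilla-2x and 27, 80 and 76 in Balilla-4x, or 1.65, 0.679 and 1.25 CPM against 1.58, 4.55 and 4.44 CPM. Replicates 2 and 3 of the tetraploid were above all diploid libraries, and replicate 1 lay within the diploid range. With library totals in place of TMM scaling replicate 1 was just above diploid replicate 1, at 1.613 against 1.602 CPM, and the lines then did not overlap, nor did they in FPKM.

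The mean of YSL2 rose from 1.19 ± 0.486 CPM to 3.52 ± 1.68 CPM (SD, n = 3), a log2 fold change of 1.56 (SE 0.49, edgeR adjusted p = 0.045). This call lay close to the threshold. It held without Balilla-4x replicate 1, with a log2 fold change of 1.91 and an adjusted p of 0.00718, and was lost when any other single library was left out, where the adjusted p was 0.0573 to 0.148 (edgeR). Limma on log2 of FPKM plus 0.1 did not call it either (adjusted p = 0.0898). YSL15 had 0 counts in each of the 6 libraries. IRT1 had 8 counts in Balilla-2x replicate 1 and 0 in the other 5 libraries. Neither root-type uptake transporter was therefore detectable in the tetraploid leaf at this depth.

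**Figure D2:**
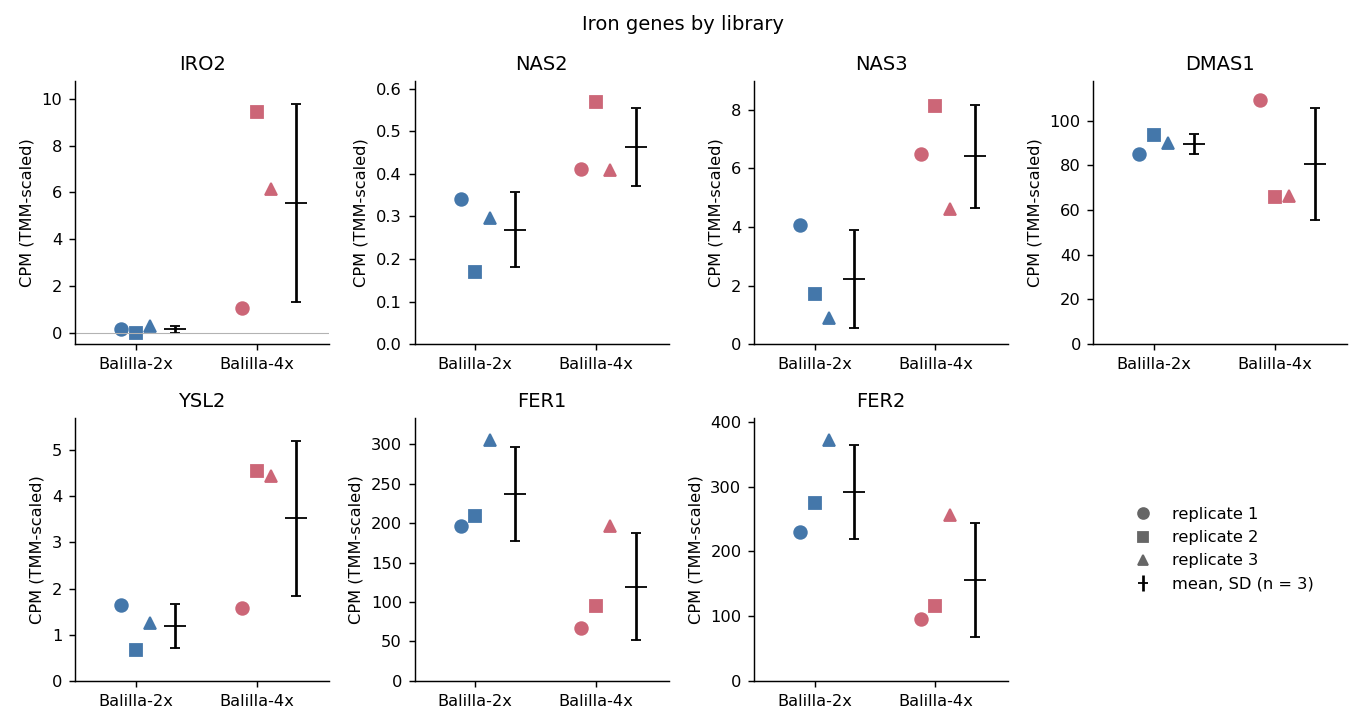
CPM on TMM-scaled library sizes of 7 genes in each library, by line, with the mean and SD of 3 libraries beside the points (NAS1, YSL15 and IRT1, at or near 0, are left out). IRO2, NAS2 and NAS3 have every Balilla-4x library above every Balilla-2x library, NAS2 by a few counts only. The ferritins have Balilla-4x replicates 1 and 2 well below the diploid and replicate 3 near its lowest library.

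FER1 and FER2 encode plastid ferritins, whose transcripts are known to rise when plants have iron in excess. They lie at the ends of chromosomes 11 and 12, which share a duplicated segment in rice, and are close copies. FER1 had 3463, 3687 and 5143 counts in Balilla-2x and 1144, 1676 and 3359 in Balilla-4x, or 197, 209 and 305 CPM against 67.1, 95.3 and 196.1 CPM. FER2 had 229, 274 and 372 CPM in the diploid and 95.4, 115 and 256 CPM in the tetraploid. In both genes tetraploid replicates 1 and 2 were well below the diploid, while replicate 3 was 2.92-fold above replicate 1 for FER1 and 2.69-fold for FER2. FER2 overlapped between the lines. FER1 missed overlap by less than 1 CPM and overlapped with library totals (196.7 CPM in tetraploid replicate 3, 191 CPM in diploid replicate 1) and in FPKM. Tetraploid values below all diploid ones were found in 22.6% of all tested genes.

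Neither ferritin passed the test. FER1 averaged 237 ± 59.4 CPM in the diploid and 119 ± 67.8 CPM in the tetraploid (SD, n = 3), with a log2 fold change of -0.99 (SE 0.35, edgeR adjusted p = 0.072). FER2 was at 292 ± 72.8 CPM and 156 ± 87.7 CPM (SD, n = 3), with a log2 fold change of -0.91 (SE 0.35, edgeR adjusted p = 0.0881). Since reads may be shared between the copies, their sum was also tested. It was 529 ± 131 CPM in the diploid and 275 ± 155 CPM in the tetraploid (SD, n = 3), with a log2 fold change of -0.94 (95% interval -1.74 to -0.14, edgeR adjusted p = 0.0805). Without Balilla-4x replicate 3 the sum was called as lower, with a log2 fold change of -1.50 and an adjusted p of 0.00598 (edgeR). With each other library left out it was not called, and without the low-count filter it was called at the same fold change (edgeR adjusted p = 0.0322).

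The balance of the ferritin copies does not depend on the scaling of libraries. FER1 made up 46.1%, 43.2% and 45.1% of their joint counts in Balilla-2x and 41.3%, 45.2% and 43.3% in Balilla-4x. The widest exact 95% binomial interval was 39.4% to 43.1%, in Balilla-4x replicate 1, and these intervals cover counting error only. The means of 44.8% ± 1.48 and 43.3% ± 1.96 did not differ beyond the spread between libraries (SD, n = 3, exact permutation test, two-sided p = 0.5, where 3 against 3 cannot go below 0.1). Per length, FER2 was above FER1 in all 6 libraries, by 1.09-fold to 1.32-fold in FPKM.

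**Figure D3:**
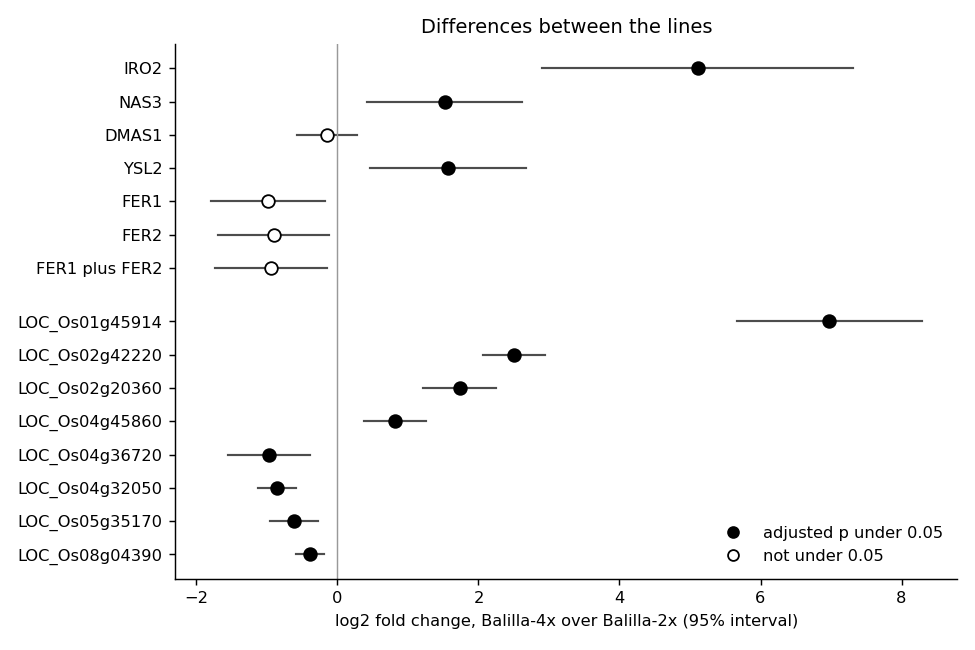
Fitted log2 fold change of Balilla-4x over Balilla-2x with its 95% interval for the 6 tested genes and the ferritin sum (upper block) and for 8 other iron loci (lower block), filled where the adjusted p is under 0.05. IRO2 at 5.11 and LOC_Os01g45914 at 6.98 lie farthest to the right, and both ferritins lie left of 0 without passing the threshold.

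The tetraploid libraries differed from each other in these genes. Replicate 2 was the highest tetraploid library for IRO2, NAS2, NAS3 and YSL2. Replicate 1 was the lowest for IRO2, YSL2, FER1 and FER2 and the highest for DMAS1. Replicate 3 was the highest for both ferritins. Replicate 1 also stood farther from the other tetraploid libraries over all genes, with chi-square values per degree of freedom of 25.7 and 30.5 against 8.83 between replicates 2 and 3. Its part in the results was not tested beyond leaving it out.

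With a library left out in turn, IRO2 had a log2 fold change of 4.49 to 5.91 and an adjusted p of 0.000255 to 0.0276 (edgeR). All 6 fits called it, but as it entered the test through the tetraploid alone this is no sign of stability. The number of members called was 1 without Balilla-2x replicate 2, without Balilla-2x replicate 3 and without Balilla-4x replicate 2, and in each of these it was IRO2. Limma on log2 of FPKM plus 1 did not call it, with a log2 fold change of 1.01 and an adjusted p of 0.0544. In none of the 14 alternatives run did a tested member change direction, although DMAS1 came as near 0 as -0.0094.

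**Figure D4:**
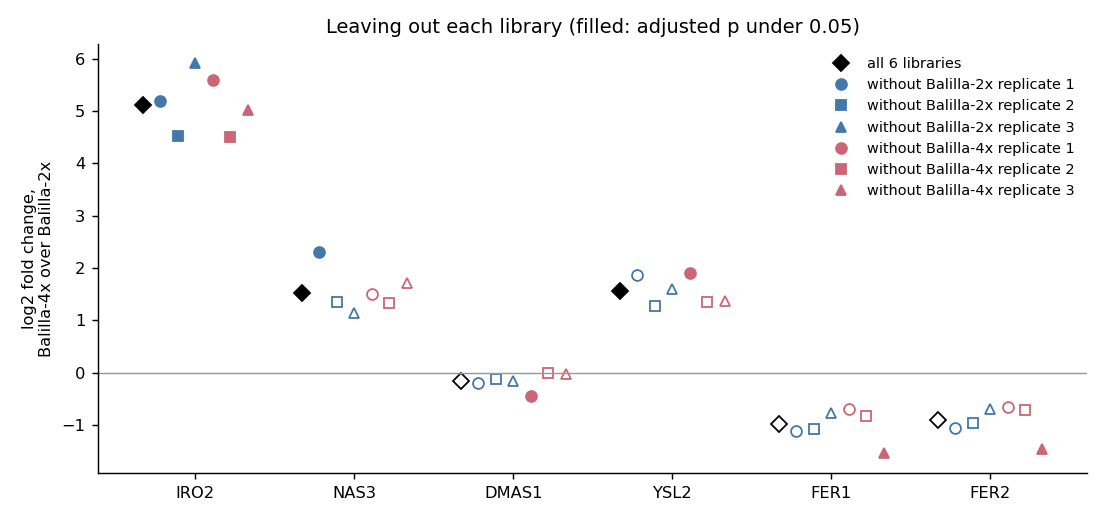
Log2 fold change of Balilla-4x over Balilla-2x for the 6 tested genes with all 6 libraries (diamonds) and with each library left out in turn (circles, squares and triangles for replicates 1, 2 and 3, coloured by the line that lost a library), filled where the adjusted p is under 0.05. The ferritins are filled only without Balilla-4x replicate 3, and IRO2, near 0 counts in the diploid, lies between 4.49 and 5.91.

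A further 29 loci of rice iron handling were examined as a list drawn up from general knowledge of rice identifiers. It covers other regulators of the iron response, enzymes and exporters of mugineic acid and nicotianamine metabolism, further Yellow Stripe-like and iron transporters, ferric reductases and vacuolar and mitochondrial iron genes. The files do not annotate these identifiers, so single loci are given by identifier only. Of the 29, 21 were tested, 5 were higher and 4 lower in Balilla-4x, and 12 were not called (edgeR, adjusted p under 0.05, against a background of 26.1% called). The median log2 fold change of the 21 was -0.19, beside 0.01 over all tested genes. The call rate was 9 of 21, and no test of the list was made. The lines did not overlap in 10 of the 21, beside 44.3% of all tested genes.

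LOC_Os01g45914 on chromosome 1 differed most. It had 11, 6 and 6 counts in Balilla-2x and 519, 1708 and 716 in Balilla-4x, or 0.624, 0.340 and 0.356 CPM against 30.4, 97.1 and 41.8 CPM. Every tetraploid library was far above the diploid, and replicate 2 was again the highest of them. The log2 fold change was 6.98 (SE 0.58, 95% interval 5.67 to 8.29, edgeR adjusted p = 0.00013). As with IRO2, the diploid was near the detection limit, so the locus entered the test mainly through the tetraploid and its call is no sign of stability. Over the 14 alternatives run the log2 fold change was 5.44 to 7.31.

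The other named loci that rose were well read in both lines. LOC_Os02g42220 had 17.4, 9.45 and 13.3 CPM in Balilla-2x and 72.3, 76.6 and 79.1 CPM in Balilla-4x, a log2 fold change of 2.50 (SE 0.19, edgeR adjusted p = 9.16e-05). LOC_Os02g20360 was abundant and went from 422, 287 and 241 CPM to 834, 1235 and 1093 CPM, a log2 fold change of 1.73 (SE 0.23, edgeR adjusted p = 0.00124). In both loci the lines were clearly apart, and both were called in all 14 alternatives. LOC_Os04g45860 rose less, from 19.8 ± 3.02 to 34.7 ± 8.44 CPM (SD, n = 3, log2 fold change 0.81, edgeR adjusted p = 0.0171), and was called in 2 of the 6 fits with a library left out.

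The named loci that fell changed by less than 2-fold. LOC_Os04g32050 had 242, 191 and 223 CPM in Balilla-2x and 119, 111 and 131 CPM in Balilla-4x, a log2 fold change of -0.86 (SE 0.12, edgeR adjusted p = 0.00156). Its lines did not overlap and it was called in all 14 alternatives. LOC_Os04g36720 went from 27.0 ± 5.89 to 13.8 ± 5.01 CPM (SD, n = 3, log2 fold change -0.97, edgeR adjusted p = 0.0252). LOC_Os05g35170 went from 958 ± 33.4 to 624 ± 122 CPM (SD, n = 3, log2 fold change -0.62, edgeR adjusted p = 0.0171). These loci were called in 2 and 3 of the 6 fits with a library left out. LOC_Os08g04390 went from 128 ± 0.851 to 98.0 ± 5.65 CPM (SD, n = 3, log2 fold change -0.39, edgeR adjusted p = 0.0139) and was called in all 14 alternatives.

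The members were also set beside the genes around them, since close genes can change together. For each member the 5 nearest tested genes on each side by locus number were taken, 80 distinct genes in all. Of these 7 were higher and 16 lower in Balilla-4x (edgeR, adjusted p under 0.05), beside 12.4% and 13.7% of all tested genes. The size of this split depends on the processing, with 9 higher and 12 lower on library totals, 8 and 9 with limma on FPKM, and 9 and 9 without Balilla-2x replicate 1. Over all genes, library totals gave 3092 higher and 2306 lower. In the other alternatives more neighbours were lower than higher. Examples are 7 higher and 16 lower with RLE size factors, 7 and 14 with DESeq2, and 8 and 18 without Balilla-4x replicate 1. Around FER2, 5 of 10 neighbours were lower, and around FER1, 3 of 10 were lower. Both ferritins lie at chromosome ends that share a duplicated segment, so their neighbours may share reads and these counts need not be independent. Around each of NAS3, DMAS1 and IRT1, 1 of 10 was lower, and around NAS1 and NAS2, which share their tested neighbours, 2 were higher and 1 lower.

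YSL2 and YSL15 lie close together on chromosome 2, with 1 gene between them in the RefSeq table, and share their tested neighbours. Of these 2 were higher and 3 lower. The tested gene just before YSL2, LOC_Os02g43360, fell with a log2 fold change of -1.18 (edgeR adjusted p = 0.00414), and the one just after YSL15, LOC_Os02g43430, fell with a log2 fold change of -0.58 (edgeR adjusted p = 0.0427). Of the 2 higher neighbours, LOC_Os02g43314, the fourth before YSL2, had 0 counts in each diploid library and 25, 32 and 27 in the tetraploid. It entered the test through the tetraploid alone and had to differ, so its call (edgeR adjusted p = 0.00132) carries no weight. The fifth before YSL2, LOC_Os02g43280, had a log2 fold change of 1.62 (edgeR adjusted p = 0.0127). These loci were chosen for mention after their values were seen. IRO2 had 3 higher and 1 lower neighbour, among them LOC_Os01g72350 just before it with a log2 fold change of 0.79 (edgeR adjusted p = 0.0232). The largest rise among them was 2.39 in LOC_Os01g72330, the third before IRO2 (edgeR adjusted p = 0.0003). It too was chosen for mention after its values were seen. The genes just before FER1 and FER2, LOC_Os11g01510 and LOC_Os12g01520, fell by 0.37 and 0.40 on the log2 scale (edgeR adjusted p = 0.0434 and 0.0299), and LOC_Os03g13380 just before DMAS1 fell by 0.49 (edgeR adjusted p = 0.0221).

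**Figure D5:**
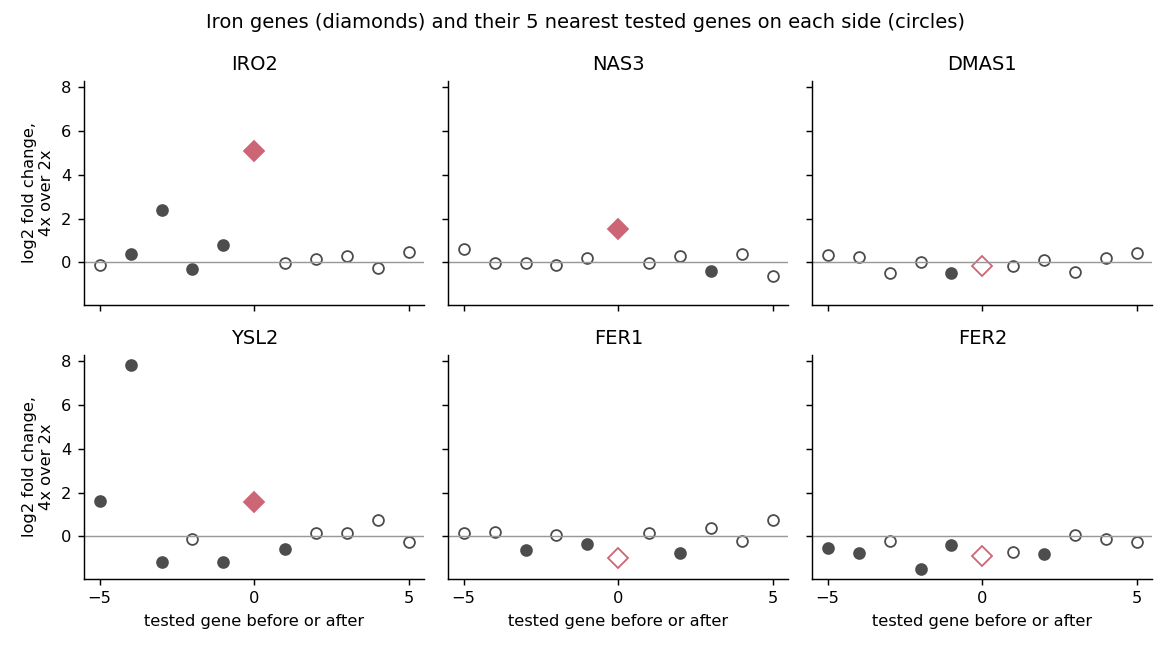
Log2 fold change of Balilla-4x over Balilla-2x for 6 iron genes (diamonds) and the 5 nearest tested genes before and after each (circles), filled where the adjusted p is under 0.05, against the order along the chromosome. IRO2 stands above its neighbours, the genes next to YSL2 are lower, and 5 of the 10 genes around FER2 are lower. LOC_Os02g43314, the fourth before YSL2, lies far above but had 0 diploid counts and entered the test through the tetraploid alone.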

How the data were processed

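RNA sequencing of leaves gave 6 libraries, 3 per line, from 4-week-old plants. Per the labels' protocols, total RNA was taken with Trizol and libraries were made with the TruSeq RNA kit. The submitters' processing notes name HISAT2 2.1.0 for alignment. Not given in the sources used here are the genome build, the annotation, the counter and its use of strand, so values of close copies and of overlapping genes are uncertain. The authors deposited a table of raw counts and, for each library, FPKM values, per the file headers. The gene length in bases implied by count, FPKM and library total was whole within 0.01 in 100% of nonzero values and was taken as the authors' length.

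The counts were tested with edgeR 4.0.16 under R 4.3.3. The filterByExpr filter left 20976 genes holding 99.9% of counts, libraries were scaled by TMM, and Balilla-4x was compared with Balilla-2x by the two-sided quasi-likelihood F test, adjusted by Benjamini-Hochberg over all tested genes at a threshold of 0.05. SE and 95% intervals of log2 fold changes were derived from the F statistic. The code was tested on simulated data. CPM uses TMM-scaled library sizes. Alternatives were library totals, RLE size factors, DESeq2 1.42.0, other low-count filters, a replicate block, limma 3.58.1 on log2 of FPKM plus 0.1 or 1, and leaving out each library. The two-sided exact permutation test was used for the share of FER1. Libraries of a line differed by far more than counting noise (chi-square per degree of freedom 8.83 or more), so none repeated another up to counting noise. This does not tell whether they came from different plants.

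The members and the lists of other iron loci, photosynthesis loci and root markers were chosen with earlier results of these data known. All members are named, with the 4 higher and 4 lower other iron loci of largest fold among those called with a mean of at least 5 CPM, and a called gene directly next to a member. Of 39387 RefSeq genes (assembly ASM3414082v1), 0 carry the identifiers of the files. No sequences are shown, as none were among the sources used here.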

Additional observations from a re-analysis of the deposited data

How the results depend on the processing

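The number of members called, 3, was 5 without the low-count filter, where both ferritins were added as lower, and 1 with limma on log2 of FPKM plus 1. It was 1 to 3 with a library left out. The ferritin sum, not called at a log2 fold change of -0.94, was called at -0.94 without the filter and at -1.06 with the replicate block, and ran from -1.50 to -0.68 with a library left out. Over the 14 alternatives IRO2 was called in 13, NAS3 in 9, YSL2 in 6, each ferritin in 3 and DMAS1 in 1, and none changed sign. IRO2 entered the main test through the tetraploid alone, so its 13 calls are no sign of stability. The log2 fold change of DMAS1 came as near 0 as -0.0094. The other iron loci called, 9, were 9 or 10 under the alternatives that kept all libraries and ran from 5 to 14 with a library left out, the extremes being without Balilla-4x replicate 2 and replicate 1. All changed genes, 5481, ran from 3029 to 6600, and neighbouring genes, 23, from 10 to 26. The balance of all changed genes, 2598 higher and 2883 lower, turned to 3092 and 2306 on library totals and to 2898 and 2240 with limma on log2 of FPKM plus 0.1. The cause was not tested. Replicate numbers were not taken as pairs: across genes, same-numbered libraries deviated from their line's mean with correlations of 0.000146, -0.0491 and -0.0586. With the number as a replicate block 4 members were called (2 higher, 2 lower), YSL2 was lost and both ferritins were gained. The difference in the FER1 share was -1.53 percentage points, -1.54 in FPKM, and -2.49 to -0.53 with a library left out. The sum of NAS1 and NAS2 equals NAS2, since NAS1 had 0 counts, and fell under the filter, so it has no main value. Depth limits IRO2, NAS2, YSL15, NAS1 and IRT1, whose counts were at or near 0 in a line.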

Other observations

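Among the 29 other iron loci, 12 were tested and not called, at mean levels of 1.51 to 218 CPM. Of these 10 were fitted lower in Balilla-4x, 3 of them at an unadjusted p under 0.05. The log2 fold changes of the 12 ran from -0.99 to 0.43 (edgeR). With the called loci included, 7 of the 21 tested were lower and 5 higher at an unadjusted p under 0.05. Over all 20976 tested genes 4168 were lower and 4054 higher at that threshold (edgeR). A further 8 loci had too few counts to be tested, 3 of them with no count in any library and the other 5 with at most 15 counts in a library. LOC_Os07g15370 had 9, 0 and 3 counts in Balilla-2x and 0 in each Balilla-4x library, and LOC_Os04g48930 had 0, 1 and 0 counts against 5, 9 and 3. Both were chosen after their values were seen, and neither reached the count needed for the test.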
